A study of Mus musculus with 40 samples.

Results

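The step from 1% to 2.5% broccoli powder in the diet of mice was followed in the bacterial RNA of their cecal contents. It was defined by the treatment label alone and covers 20 of the 40 libraries, 10 at 1% and 10 at 2.5%. All the mice were C57BL/6, a common inbred laboratory strain, and began the Total Western Diet, a rodent diet built on Western nutrient intakes, when 3 weeks old. They ate it for 6 weeks, and for another 3 weeks with broccoli powder added at 1% or 2.5%. The other libraries came from mice on the same schedule with 0% or 0.5%, and they enter below only where they are named. The labels give no cage, sex or litter, and do not say outright that each library is 1 mouse. The p-values set group differences against the spread between these libraries, treated as independent, which the labels cannot show.

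RNA was counted on 6 bacterial genomes, called here by their deposited names: F. rodentium, L.bacterium335, X. muris, D. muris, Acetatifactor and Alistipes. In work on the mouse gut, F. rodentium usually stands for Faecalibaculum rodentium, which ferments sugars to lactate, and D. muris for Duncaniella muris, a Bacteroidales species that degrades polysaccharides. Alistipes is a genus of the same order, and Acetatifactor a genus of the Lachnospiraceae, a family with many fermenters of plant fibre. Broccoli brings fibre such as pectin, and glucosinolates, which gut bacteria can convert to isothiocyanates. A community profile of this kind shows which bacteria hold more of the RNA, and the features within 1 genome show how that RNA is divided among its genes.

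Total counts over the 6 genomes ran from 253365 to 1422812 per library at 1% (median 698377) and from 236483 to 1670693 at 2.5% (median 889232), and the groups did not differ in this total by a two-sided permutation test (p = 0.232). Libraries with at least 10000 counts on a genome were used for its features. All 10 libraries at 1% reached this except in Alistipes, where 0 did. At 2.5% it was reached by 7 libraries in Alistipes, 8 in F. rodentium, 9 in D. muris and X. muris, and 10 in the other two. One library stood apart: 2.5% replicate 9 had the lowest total, 352 counts on F. rodentium, 2435 counts on 13 features of X. muris, and 79.1% of its L.bacterium335 counts on 5 features. It is left out by the minimum in 4 genomes, and results that rest on it are given with and without it.

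F. rodentium fell and Alistipes rose at this step. F. rodentium held 46.1% ± 30.8 (SD, n = 10) of the 6-genome counts at 1% and 10.7% ± 10.6 (SD, n = 10) at 2.5%. The shares at 1% were 43.2, 66.9, 30.5, 7.14, 3.48, 84.4, 13.1, 68.2, 65.3 and 79.1% in replicates 1 to 10. At 2.5% they were 5.35, 3.74, 15.6, 3.91, 16.1, 0.0194, 23.1, 31.6, 0.149 and 7.28%. The 1% libraries were spread over nearly the whole range, with 6 of them above every library at 2.5% and 4 inside the 2.5% range. The difference was -35.4 percentage points, with 10 of 10 libraries at 2.5% below the 1% mean (two-sided permutation test, adjusted p = 0.0130 over 6 genomes). In 2.5% replicates 6 and 9 only 161 and 352 counts fell on this genome, while the other 8 libraries held at least 32723. In such bulk RNA, fewer cells of a bacterium and less RNA per cell cannot be told apart.

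Alistipes held 0.170% ± 0.170 (SD, n = 10) of the counts at 1% and 1.58% ± 0.981 (SD, n = 10) at 2.5%, a ratio of means of 9.27. At 1% its share ran from 0.0364% through a median of 0.0960% to 0.555%. At 2.5% it ran from 0.500% through 1.46% to 3.78%. The groups met in a single place: 9 of 10 libraries at 2.5% lay above every library at 1%, and 2.5% replicate 6 lay below 1% replicate 3. The rise of 1.41 points passed the test (two-sided permutation test, adjusted p = 0.00048). In counts, the genome received 338 to 3479 per library at 1% and 3692 to 44385 at 2.5%, and these ranges did not overlap.

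L.bacterium335 had the largest mean share of the 6 at 2.5%. Its share rose from 28.2% ± 21.1 to 50.4% ± 8.88 (SD, n = 10 each), with 10 of 10 libraries above the 1% mean (two-sided permutation test, adjusted p = 0.0173). At 1% the shares ran from 4.22% through a median of 22.6% to 66.0%, and at 2.5% from 34.0% through 50.7% to 65.1%. All 2.5% libraries lay within the range of the 1% libraries, while 6 of the 1% libraries lay below every library at 2.5%. The 1% libraries with the largest F. rodentium shares, replicates 6 and 10, had the smallest L.bacterium335 shares (4.95 and 4.22%), and replicate 5, with the smallest F. rodentium share, had the largest (66.0%).

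X. muris rose from 5.99% ± 3.75 to 11.8% ± 6.76 (SD, n = 10 each), in 8 of 10 libraries (two-sided permutation test, adjusted p = 0.0428). This call was lost without the libraries numbered 80 and 81, whose numbers stand apart from the rest of their groups (4.71 points, permutation adjusted p = 0.116), and in 12 of the 20 runs that left out 1 library. Without 2.5% replicate 9 the rise was 7.01 points. Acetatifactor went from 11.4% ± 8.25 to 16.6% ± 13.96 and D. muris from 8.14% ± 3.32 to 8.97% ± 4.75, and neither passed (permutation adjusted p = 0.422 and 0.679, n = 10 each). Without 2.5% replicate 9, which held 51.7% Acetatifactor, the Acetatifactor difference was 1.33 points in place of 5.23.

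**Figure D1:**
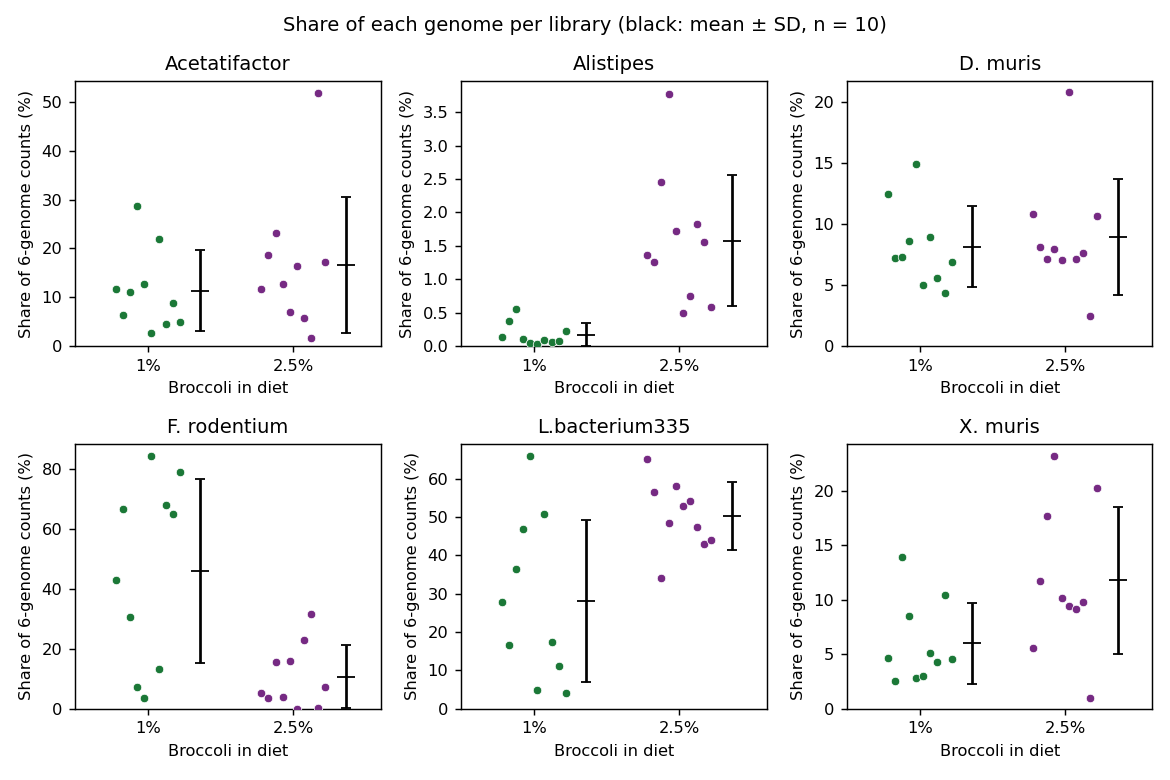
Share of each genome in the counts of the 6 genomes, in percent, for each library at 1% and at 2.5% broccoli (points), with the mean and SD in black; each panel has its own scale. F. rodentium covers 3.48 to 84.4% at 1% and stays at or under 31.6% at 2.5%, while 9 of 10 Alistipes libraries at 2.5% lie above all at 1%.

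Shares add up to a whole, so a fall in F. rodentium raises the others. Among the 5 genomes without F. rodentium, a denominator chosen after the data had been seen, D. muris fell from 18.4% ± 8.65 to 10.02% ± 4.60 (SD, n = 10 each), in 9 of 10 libraries (two-sided permutation test, adjusted p = 0.0286). Alistipes still rose, by 1.38 points in 10 of 10 libraries (permutation adjusted p = 0.0037). L.bacterium335 (46.7 to 57.1%), Acetatifactor (20.5 to 17.7%) and X. muris (13.9 to 13.4%) did not pass (permutation adjusted p = 0.162, 0.756 and 0.891). As centred log-ratios, which set each genome against the geometric mean of all 6, F. rodentium fell by 3.64 (permutation adjusted p = 0.0055) and Alistipes rose by 3.01 (0.00036). On that scale X. muris (0.35, permutation adjusted p = 0.398) and L.bacterium335 (0.80, 0.179) did not pass, and D. muris (-0.43) and Acetatifactor (-0.083) changed sign.

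Beside the other diets, the mean F. rodentium share was 72.8% at 0% and 76.1% at 0.5%, so the mean moved by 3.26 points from 0% to 0.5%, by -30.0 from 0.5% to 1% and by -35.4 from 1% to 2.5%. The last of these was the largest fall in points, but the difference between the last 2 steps was not tested. In medians the step from 1% to 2.5% took F. rodentium from 54.2% to 6.32%. Alistipes moved by 0.0386, 0.108 and 1.41 points over the same 3 steps, and already had counts at 0%, with a mean share of 0.0240%. These were only 51 to 336 counts per library, with 33.3 to 61.0% of them on 5 features.

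Features within each genome were compared against the remaining features of that bacterium. Of the 5 genomes with enough counts at 1%, L.bacterium335 had the most calls by edgeR with TMM factors, though 0 with RLE factors or with the genome total as a covariate. Of its 2026 tested features 98 fell and 3 rose (edgeR adjusted p under 0.05), which is 4.84% and 0.148% of those tested, 4.99% in all. X. muris had 7 lower and 1 higher of 789 (0.887% and 0.127%, 1.01% in all), F. rodentium 5 higher and 0 lower of 1209 (0.414%), and D. muris 3 lower and 0 higher of 1096 (0.274%). Acetatifactor had 0 of 1026 by edgeR (0%), with 82 at an unadjusted p under 0.05, 9 higher and 73 lower. DESeq2 called 18 there. The median log2 fold change over all tested features was -0.002 in Acetatifactor, 0.03 in D. muris, -0.01 in F. rodentium, 0.29 in L.bacterium335 and 0.08 in X. muris.

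**Figure D2:**
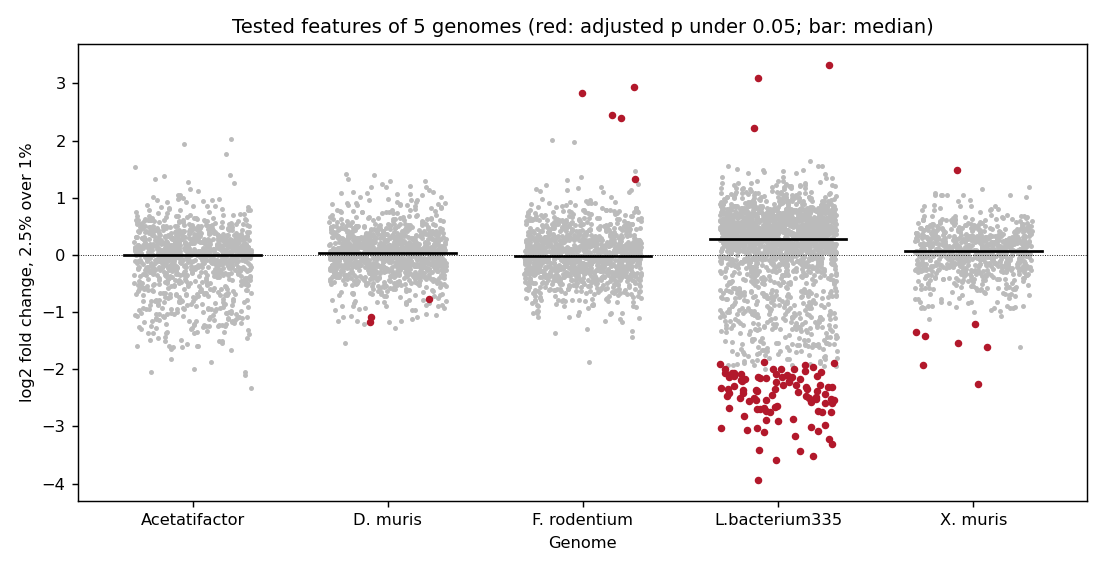
Log2 fold change at 2.5% over 1% (vertical axis) of every tested feature of 5 genomes, with features called by edgeR in red and the median of each genome as a bar; horizontal spread within a genome carries no value. L.bacterium335 has 98 called features below 0 and 3 above, and the 5 calls of F. rodentium are all above 0.

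In F. rodentium 5 features rose: glmS_2, frlB, agaC, hisD and 1 with no symbol. Values, except in Alistipes, are CPM, each library's counts scaled to a common total over the tested features of the genome, with TMM factors. The gene glmS_2, named for the enzyme that makes glucosamine-6-phosphate, ran from 0 through a median of 44.7 to 225.4 CPM at 1% (n = 10) and from 81.7 through 372.7 to 857.0 CPM at 2.5% (n = 8). All 8 libraries at 2.5% lay above the 1% mean, and the groups overlapped through 1% replicates 4 and 7. Its log2 fold change was 2.83 ± 0.50 (SE, edgeR adjusted p = 0.00273).

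The gene frlB encodes a deglycase that splits phosphorylated fructoselysine, an early glycation product found in heated food. It ran from 33.03 through a median of 115.0 to 606.0 CPM at 1% and from 170.8 through 691.3 to 1899 CPM at 2.5%. It was above the 1% mean in 7 of 8 libraries at 2.5%, with a log2 fold change of 2.46 ± 0.52 (SE, edgeR adjusted p = 0.0224). The 2 highest values at 1%, 405.8 and 606.0 CPM, came from replicates 4 and 5, which also had the smallest F. rodentium shares of their group (7.14 and 3.48%). They rest on 18 and 16 counts.

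The gene agaC, named for a subunit of the phosphotransferase transporter of N-acetylgalactosamine, went from a median of 65.6 CPM (31.9 to 315.6) to 399.2 CPM (89.1 to 1482). Its highest values at 1% again came from replicates 4 and 5 (315.6 and 227.3 CPM). The log2 fold change was 2.40 ± 0.51 (SE, edgeR adjusted p = 0.0224), with 7 of 8 libraries above the 1% mean. A feature with no symbol, gene:ENSB:MydWYpG7pUIWlBg, went from a median of 48.4 CPM (5.31 to 113.6) to 209.2 CPM (95.4 to 1042), in 8 of 8 libraries (log2 fold change 2.94 ± 0.52, edgeR adjusted p = 0.00273). At 2.5%, replicate 4 gave the highest value of glmS_2, frlB, agaC and this feature, and replicates 3, 7 and 10 gave the 3 lowest values of each, so these features were high and low in the same libraries.

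The fifth, hisD, encodes histidinol dehydrogenase, the last step of histidine synthesis. It ran from 45.1 through 137.1 to 206.8 CPM at 1% and from 166.6 through 399.9 to 471.1 CPM at 2.5%, above the 1% mean in 8 of 8 libraries. Only 2.5% replicate 8 lay inside the range of the 1% group. Its log2 fold change was 1.33 ± 0.29 (SE, edgeR adjusted p = 0.0261), and it lost its call in 9 of the 18 runs that left out 1 library. The calls of frlB and agaC were lost in 7 of 18 such runs each, with adjusted p up to 0.0774 and 0.123 by edgeR, and those of glmS_2 and the feature with no symbol in 0 of 18. With the genome total as a covariate 3 of the 5 were still called.

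**Figure D3:**
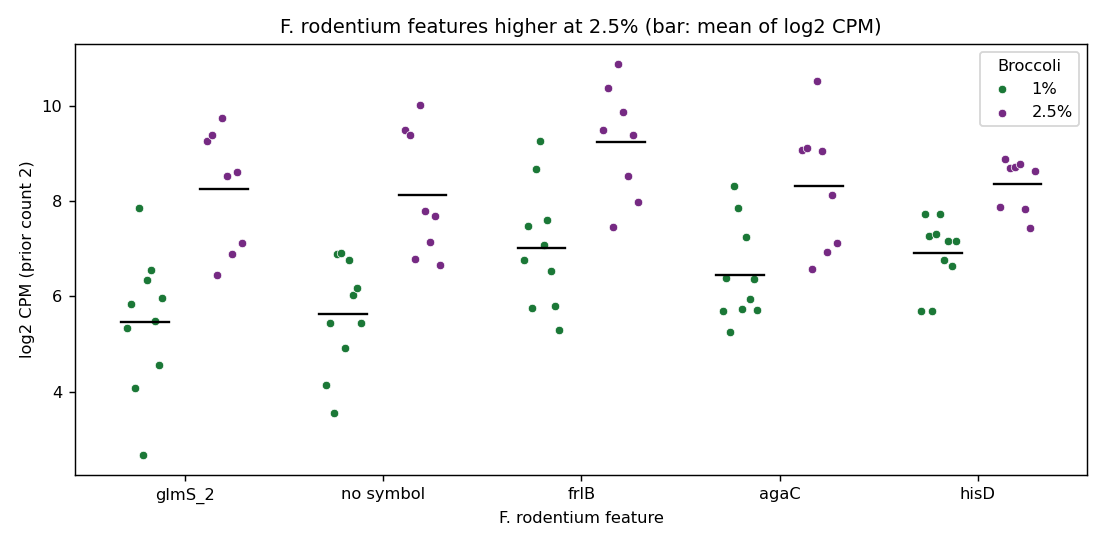
Level of the 5 F. rodentium features called higher at 2.5%, as log2 CPM with a prior count of 2, for each library at 1% (n = 10) and at 2.5% (n = 8), with bars at the group means. The means differ by more than 1 unit for each feature, while single libraries of the groups overlap.

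Among gene lists, F. rodentium had calls in 2: fructoselysine use, which is frlB alone, and synthesis of amino acids other than the branched-chain ones, with hisD. Over all tested features of this genome 0.414% were called. Of the 45 tested genes of that synthesis list 1 rose and 0 fell, 39 had a fold change above 0, and the median log2 fold change was 0.40 beside -0.01 for all tested features. Of 42 ribosomal protein genes 0 were called, with 37 above 0 and a median of 0.23. Of 10 chaperone and protease genes 0 were called, with a median of -0.49, the lowest of the 19 lists with at least 5 tested members. Of the 12 tested genes in the list of phosphotransferase genes, which import and phosphorylate sugars, 0 were called. That list did not hold agaC, which was called. The mannose permease gene manZ_1 stood at a log2 fold change of 1.98 (adjusted p = 0.165 by edgeR), the galactitol gene gatC_2 1.22 (0.280) and the cellobiose gene celB 0.93 (0.464).

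In L.bacterium335 the 98 features that fell had log2 fold changes from -3.94 to -1.87, with a median of -2.40, and 21 of them carried a symbol. The largest fall with a symbol was mftC, named for a maturase of the peptide-derived cofactor mycofactocin. It ran from 12.5 through a median of 150.0 to 595.8 CPM at 1% and from 0 through 9.84 to 92.8 CPM at 2.5%, with 3 libraries at 0. Every one of the 10 libraries at 2.5% was below the mean of the 1% group, and the log2 fold change was -3.94 ± 0.72 (SE, edgeR adjusted p = 7.65e-05).

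The gene rutB, named for an amidohydrolase of pyrimidine breakdown, went from a median of 184.2 CPM (64.4 to 1409) to 39.4 CPM (13.03 to 285.0) (log2 fold change -3.01 ± 0.70, SE, edgeR adjusted p = 0.00219). The gene cpdA, named for a phosphodiesterase of cyclic AMP, went from a median of 127.6 CPM (17.9 to 664.6) to 23.4 CPM (0 to 119.3) (log2 fold change -2.82 ± 0.68, SE, edgeR adjusted p = 0.00309). The groups overlapped for each of these genes, though 10 of 10 libraries at 2.5% were under the mean at 1%.

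Other named falls were recF_1 of DNA repair (-2.59, edgeR adjusted p = 0.00753), the sigma factor gene rpoD_1 (-2.41, 0.00702), the sensor kinase gene sasA_7 (-2.37, 0.0163), the ABC transporter gene btuD_1 (-2.47, 0.00679) and rhaS_3, named for an activator of rhamnose use (-1.91, 0.0458). The call of rhaS_3 was lost in 12 of the 20 runs that left out 1 library. Chosen after their values were seen, the integrase genes Int-Tn_4 and Int-Tn_5 of transposons had log2 fold changes of -2.22 and -2.30, the recombinase gene xerC_11 of -2.39, and the repressor genes mecI_1 and mecI_2 of -2.50 and -2.20, all called by edgeR. A numeric suffix marks copies of the same family, between which the counting may split reads in an uncertain way.

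By list, 5 of 48 tested two-component genes, which sense and relay signals, fell and 0 rose, with a median of 0.16. In DNA recombination and repair 2 of 41 fell, with 34 above 0 and a median of 0.50, and in vitamin B12, RNA polymerase and translation factors, and plant sugar use 1 each of 6, 26 and 21. The background share of falls in this genome was 4.84%, and the median log2 fold change of all its tested features was 0.29. Of 35 flagella and chemotaxis genes 0 were called, with a median of 0.36, and of 12 pectin and uronate genes 0, with a median of 0.22. Of 5 butyrate genes 0 were called, with a median of 0.63, and of 11 glycogen genes 0, with a median of 0.44. The flagellar cap gene fliD, at a mean of 5790 CPM at 1% and 5915 CPM at 2.5%, had a log2 fold change of 0.03 ± 0.63, and its sign changed in 8 of the 20 runs that left out 1 library. Of the 3 features that rose, ulaF, an epimerase gene of ascorbate and pentose use, had a symbol. It went from a median of 25.9 CPM (0 to 88.2) to 152.3 CPM (0 to 357.9), with 0 counts in 4 libraries at 1% and 1 at 2.5% (log2 fold change 2.22 ± 0.66, edgeR adjusted p = 0.0227). The call of ulaF was lost in 5 of the 20 runs that left out 1 library (edgeR adjusted p up to 0.0818).

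The 98 features that fell held most of this genome's counts in mice fed no broccoli. In all 10 libraries at 0%, 79 of the 98 had counts, against 201 of all 2026 tested features. Counts were very uneven over the 98. At 1%, gene:ENSB:JWdatHetVOJ_3lx, gene:ENSB:PVwPQHnk9X--Snz and gene:ENSB:4R7lbDLhrz9dbmX had means of 344365, 113281 and 97940 CPM, beside 243.6 CPM for mftC. In 0% replicate 1 the 98 held 83.8% of the counts and the 5 most counted features of the genome 82.1%, so these shares largely overlap. The 98 held a median of 77.5% of the L.bacterium335 counts at 0%, 49.3% at 0.5%, 37.8% at 1% and 8.73% at 2.5%. At 1% the libraries ran from 11.4 to 72.2%, and at 2.5% 9 of 10 ran from 4.12 to 16.8%, with replicate 9 at 81.7%. The features were chosen on the 1% and 2.5% libraries, so those 2 values are a description, and the values at 0% and 0.5% come from other libraries.

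Unscaled, the counts on these features overlapped: 18438 to 131631 per library at 1% (median 56620) and 32649 to 83177 at 2.5% (median 51055.5). The total on the genome had medians of 155046 and 525404. The falls are thus relative to the other features of the genome. With RLE factors in place of TMM, the median of all tested features moved from 0.29 to 1.57 and 0 features were called. Adding the genome total as a covariate also left 0. Whether the counts on the 98 features stem from this bacterium was not tested. Leaving out 2.5% replicate 9 raised the calls from 101 to 164.

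The number of features that share the counts was measured at equal depth. L.bacterium335 showed 1233 ± 397 features with a count in 10000 counts at 1% and 1564 ± 435 at 2.5% (SD, n = 10 each; permutation adjusted p = 0.155 over 5 genomes). Of the 1% libraries, replicates 2, 6, 9 and 10 lay between 657.9 and 836.9, replicate 7 at 1319, and the others between 1477 and 1710. Those 4 held 65.3 to 84.4% F. rodentium, while replicate 8, with 68.2%, had 1579 features. At 2.5%, 9 libraries lay between 1483 and 1820 and replicate 9 at 359.7. Without that library the difference was 464.4 features (permutation adjusted p = 0.00617, exact). The share on the 5 most counted features moved by -17.8 points to 24.2% ± 19.6 at 2.5% (permutation adjusted p = 0.131, n = 10 each), and by -23.9 points without replicate 9 (exact permutation adjusted p = 0.000974). Each measure passed in 1 of the 20 runs that left out 1 library, the run without replicate 9. That library was singled out by its values on these same measures, so the p-values without it are a description.

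**Figure D4:**
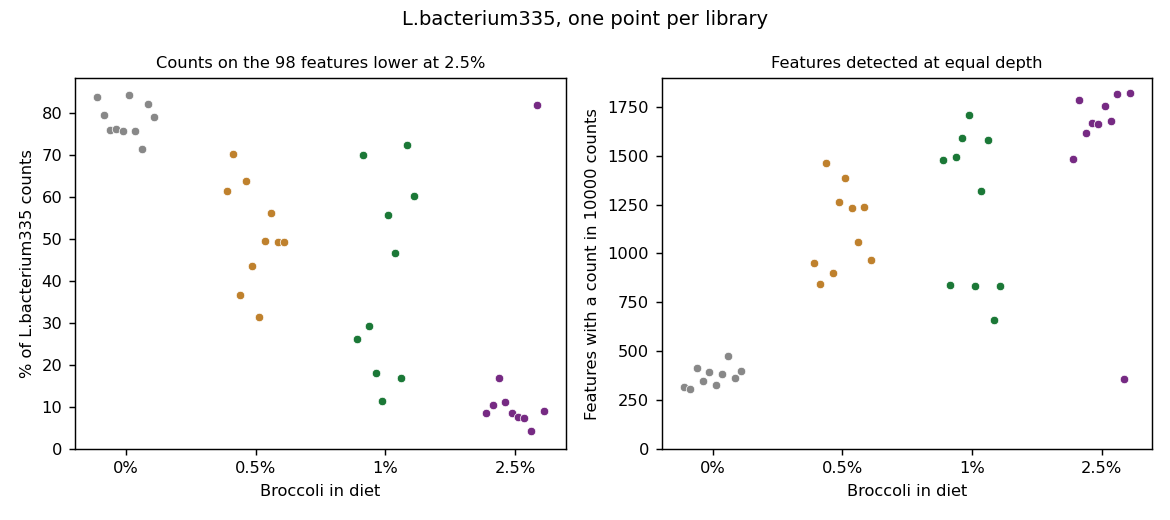
L.bacterium335 in each library of the 4 diets: the percent of its counts on the 98 features that were lower at 2.5% than at 1% (left) and the features with a count in 10000 counts (right). At 2.5%, 9 libraries sit at 4.12 to 16.8% on the left and 1 at 81.7%, and the same library has 359.7 features on the right.

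X. muris had counts on more features at 2.5%, a call that was lost in 8 of the 19 runs that left out 1 library (permutation adjusted p up to 0.0617). Per 10000 counts, 974.3 ± 211.1 features had a count at 1% (n = 10) and 1233 ± 145 at 2.5% (n = 9), higher than the 1% mean in 8 of 9 libraries (exact permutation test, adjusted p = 0.0309). In the same libraries at a depth of 2000 counts, added after seeing the data, the difference was 113.7 features and missed the test (exact permutation adjusted p = 0.0858, n = 10 and 9). At that depth 2.5% replicate 9 also enters, and with it the difference was 60.9 features (permutation adjusted p = 0.398, n = 10 each). Its 5 most counted features held 64.1% ± 11.5 of the counts at 1% and 54.0% ± 8.04 at 2.5% (exact permutation test, adjusted p = 0.131, n = 10 and 9). D. muris (1365 to 1444 features, adjusted p = 0.0884, n = 10 and 9), F. rodentium (1121 to 1159, 0.358) and Acetatifactor (1403 to 1675, 0.177) did not pass the permutation test.

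The strongest fall in X. muris by p-value was HPS56_RS05300, a feature with a locus tag and no symbol. It ran from 1575 through a median of 4100 to 10935 CPM at 1% and from 430.5 through 884.8 to 1602 CPM at 2.5%. The ranges overlapped only between 1575 and 1602 CPM, and 9 of 9 libraries at 2.5% lay below the 1% mean (log2 fold change -2.27 ± 0.29, edgeR adjusted p = 9.97e-07). Of the 7 features that fell, 4 carry tags from HPS56_RS05280 to HPS56_RS05300, with log2 fold changes from -2.27 to -1.35. HPS56_RS05280 went from 4438 to 1739 CPM in means (-1.35 ± 0.25, edgeR adjusted p = 0.000503), and HPS56_RS05275 was -1.61 (adjusted p = 0.156). HPS56_RS05325, the next tested tag on the other side, was 0.27. The remaining falls were HPS56_RS05390 (-1.54, edgeR adjusted p = 0.038), HPS56_RS05400 (-1.21, 0.017) and HPS56_RS07970 (-1.92, 0.0005). Tags usually follow the order of genes along a genome, but positions were not used here. The 1 rise, HPS56_RS09295, was 1.48 ± 0.38 (edgeR adjusted p = 0.0373) and was lost in 11 of the 19 runs that left out 1 library. With the genome total as a covariate 0 X. muris features were called, and HPS56_RS05300 stood at -1.16 (edgeR adjusted p = 0.339). None of the X. muris lists had a call by edgeR.

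In D. muris the smallest p belonged to gene:ENSB:f6oV40Sf4Ggdy__, which has no symbol. It ran from 1334 through a median of 1738 to 3054 CPM at 1% (n = 10) and from 602.6 through 936.0 to 1212 CPM at 2.5% (n = 9). The groups did not overlap, and its log2 fold change was -1.09 ± 0.17 (SE, edgeR adjusted p = 0.000974). The call was lost when the genome total was a covariate (-0.93, edgeR adjusted p = 0.0783) and with a minimum of 50000 counts (-1.01, 0.0769). Another feature with no symbol, gene:ENSB:tTyX4Bo74u8uLhw, went from a mean of 3244 CPM to 1898 CPM (log2 fold change -0.78 ± 0.15, SE, edgeR adjusted p = 0.00759). The remaining call, gene:ENSB:KigQXZgqmxMUb_d, also had no symbol. It went from a median of 1585 CPM (718.3 to 4153) to 774.2 CPM (561.6 to 1407) (log2 fold change -1.17 ± 0.25, edgeR adjusted p = 0.0270), and lost its call in 11 of the 19 runs that left out 1 library.

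Lists in D. muris had 0 calls by edgeR, while DESeq2 called susC_2, susD and ilvB among the members named here (adjusted p = 0.0419, 0.0325 and 0.0105). SusC and SusD proteins form the outer membrane pairs through which Bacteroidales import glycans. All 5 tested members had fold changes below 0, from -0.90 to -0.23. Their median of -0.72 was the lowest of the 17 lists with at least 5 tested members, beside 0.03 for all tested features. The most counted, susC_2, went from a median of 6856 CPM (3232 to 12909) to 4834 CPM (3368 to 6524), below the 1% mean in 9 of 9 libraries (log2 fold change -0.72 ± 0.20, edgeR adjusted p = 0.134, and 0.0238 to 0.239 with 1 library left out). The gene susD stood at -0.84 ± 0.23 (0.128) and susC_3 at -0.90 ± 0.38 (0.307). With the genome total as a covariate susC_1 changed sign, from -0.23 to 0.05.

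At the other end stood synthesis of branched-chain amino acids, whose 6 tested genes were all above 0, with a median of 0.72, the highest of the 17 lists, and 0 called. The acetolactate synthase gene ilvB went from a median of 676.2 CPM (71.8 to 1200) to 1490 CPM (755.2 to 2289), above the 1% mean in 9 of 9 libraries (log2 fold change 1.10 ± 0.27, edgeR adjusted p = 0.108, and 0.0238 to 0.195 with 1 library left out). The isopropylmalate dehydratase gene leuC stood at 1.09 ± 0.56 (0.425) and the dihydroxy-acid dehydratase gene ilvD at 0.70 ± 0.27 (0.241).

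**Figure D5:**
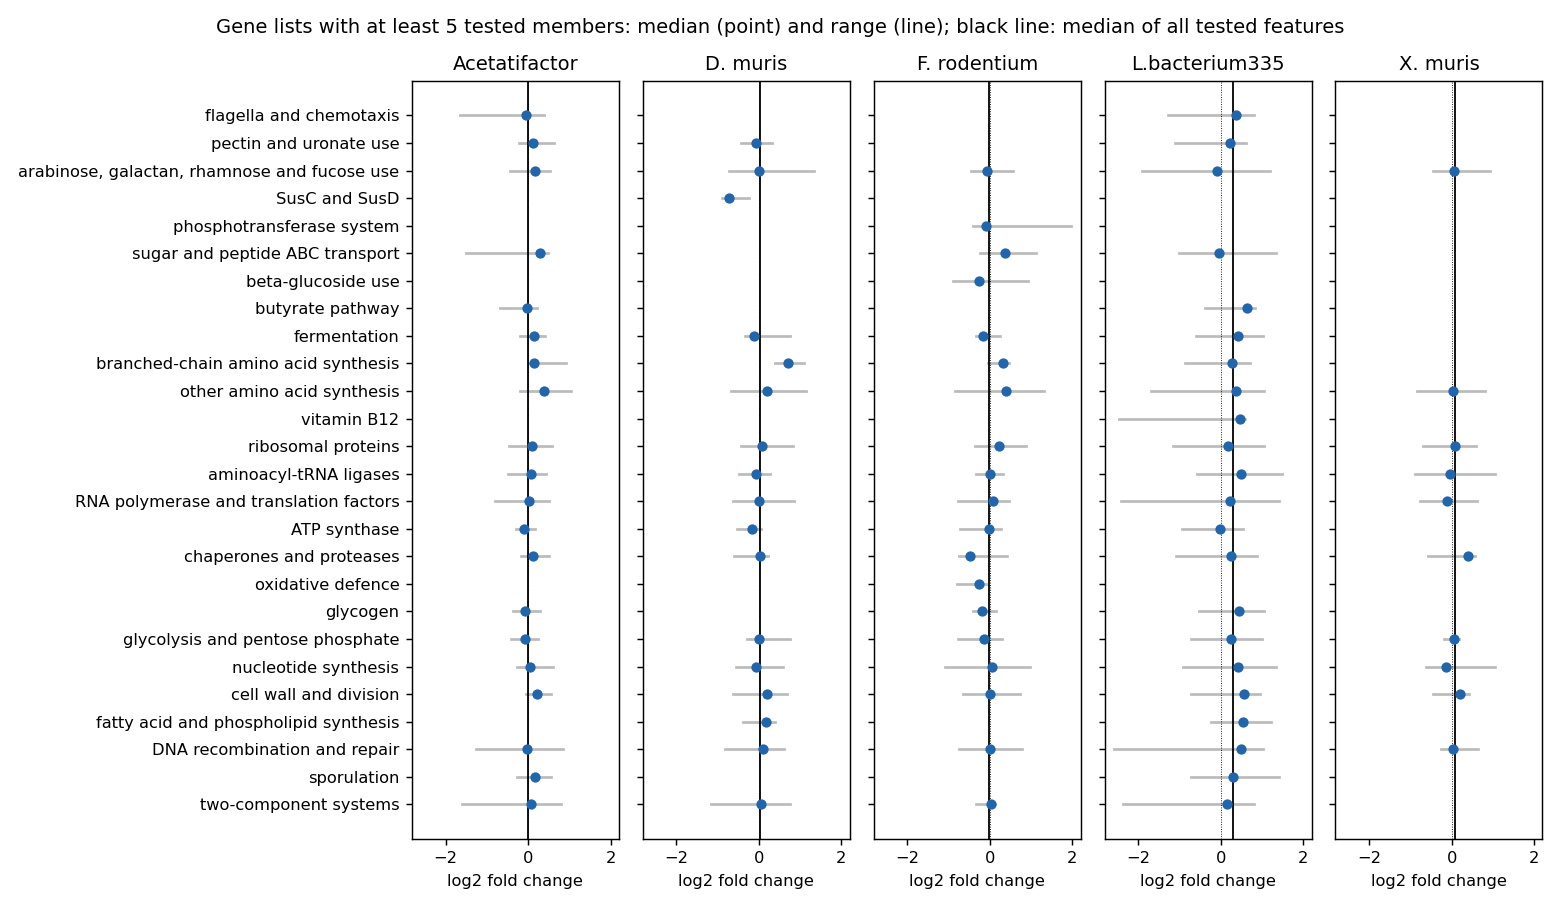
Median (points) and range (grey lines) of the log2 fold change at 2.5% over 1% for gene lists with at least 5 tested members, in 5 genomes, with the median of all tested features as a black line. SusC and SusD lie lowest and branched-chain amino acid synthesis highest among the D. muris lists, at -0.72 and 0.72.

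In Acetatifactor edgeR called no feature, against 7 without the low-count filter and 18 by DESeq2. The smallest p with a symbol belonged to hldD, a heptose epimerase gene of sugar-nucleotide synthesis, which went from a median of 265.6 CPM (137.4 to 1550) to 110.6 CPM (0 to 347.8). All 10 libraries at 2.5% were under the mean at 1%, with a log2 fold change of -1.998 ± 0.548 (SE, edgeR adjusted p = 0.116, and 0.0474 by DESeq2). The response regulator gene phoP_2 stood at -1.60 (0.318) and yneA_2 at 1.94 (0.223). The flagellin gene hag had 1426 CPM at 1% and 1855 CPM at 2.5% in means, and the glycogen gene glgD 3835 and 4176 CPM. The butyrate pathway gene hbd had 953.4 and 1125 CPM. Between them, these 3 genes had log2 fold changes from 0.12 to 0.38. The library 2.5% replicate 8 had 0 counts for all 3, and its 28575 Acetatifactor counts fell on 663 features, while the other 9 libraries at 2.5% had counts on 2450 to 3582. In 11 of the 20 runs that left out 1 library edgeR called features, at most 25, without 2.5% replicate 9. The gene hldD passed in 3 of the 20 runs and phoP_2 in 1.

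In Alistipes the 1% libraries were too shallow for a comparison of single features at the library minimum. Without the minimum, edgeR tested 43 features and called 0 (0%), with 3 at an unadjusted p under 0.05. DESeq2, run without the minimum or the low-count filter on 1624 features, called 359, of which 358 were higher. With 338 to 3479 counts per library on the genome at 1%, and 3692 to 44385 at 2.5%, these calls cannot be told apart from the gap in depth. They are not read here as genes rising within the genome. At 2.5%, in the 7 libraries with at least 10000 counts, CPM were scaled to all counts on the genome, without TMM factors. They were not corrected for gene length, so the order below is one of counts. The translation elongation gene tufA had the highest level of the features with a symbol, 7755 ± 3179 CPM (SD, n = 7). It was followed by btuB_2, named for the outer membrane receptor of vitamin B12, at 6475 ± 1932 CPM, the pyruvate phosphate dikinase gene ppdK at 5798 CPM and the efflux pump gene bepE_2 at 5783 CPM. The RNA polymerase genes rpoB (5284 CPM) and rpoC (5150 CPM), fusA_1 of translation (4597 CPM) and serC of serine synthesis (4321 CPM) came next. Summed over 10 libraries, tufA had 98 counts at 1%, with 3 libraries at 0.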

How the data were processed

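Total RNA from cecal contents was depleted of bacterial ribosomal RNA and sequenced, per the labels' protocols. The deposited values were raw counts per feature of 6 bacterial genomes, which the authors left unnormalized; the aligner, counting program, strand setting and build are, in the sources used here, not given. Each column matched 1 library by title. Groups came from the treatment label. Replicates were numbered in sample order.

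Each genome was fitted alone with edgeR 4.0.16 (R 4.3.3): libraries with at least 10000 counts, stable RNA features (such as ssrA and 5S rRNA) left out, filterByExpr, TMM factors, the quasi-likelihood test of 2.5% against 1%, two-sided, Benjamini-Hochberg adjustment within the genome, threshold 0.05. Standard errors were derived from the F statistic. Shares, 5-feature shares and features per 10000 counts (stable RNA included) were compared by two-sided permutation tests of means (SciPy 1.17.1; 100000 resamples, or exact where a group had under 10 libraries), adjusted over genomes; the smallest unadjusted p that the resamples can give is 2e-05. Alternatives included DESeq2 1.42.0, run without the low-count filter. The scripts were tested on simulated data. Among 90 within-group pairs, 0 had identical counts, and the smallest chi-square statistic per degree of freedom was 8.30.

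The comparison and the 31 gene lists, matched to symbols by pattern, were chosen with earlier results of these data known, and 2 patterns were corrected after values were seen (susB and carB were removed). Genes were named by a rule: per genome, of the called genes that had a symbol and were at least at the median level, the 3 largest changes each way, plus the called list member with the smallest p; with no call, the 3 smallest p; in Alistipes the 8 highest levels. It gave 22 genes, all named above. The other genes and features named were chosen after their values were seen.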

Additional observations from a re-analysis of the deposited data

Results flagged for a closer look

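Of 128 groups of libraries examined, 20 held a library far from the rest of its group, by its gap to the nearest other library against the range of the group (Dixon's 95% limit). Chance flags about 1 in 20 groups. In the library 2.5% replicate 9, Acetatifactor held 51.7% of the 6-genome counts against a median of 12.6% in the others, and L.bacterium335 had 79.1% of its counts on 5 features and 359.7 features in 10000 counts. In the same library the L.bacterium335 genes glgD, hbd, kduD_1 and ulaF stood at 2.30 log2 CPM, the value of a gene with 0 counts there, and fliD at 4.63 log2 CPM, against 12.65 as the median of the others.

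In 2.5% replicate 8, the Acetatifactor genes glgD, hag, hbd and yneA_2 stood at 4.39 log2 CPM, again the value of 0 counts, while the medians of the others were 12.18, 11.15, 10.15 and 8.87. The same library had the lowest L.bacterium335 sasA_7, at 4.07 log2 CPM. In 1% replicate 6, Acetatifactor glgD (10.33) and hbd (6.80 log2 CPM) were low. D. muris held 20.8% of the counts in 2.5% replicate 6, a library with 161 counts on F. rodentium, against a median of 7.63% in the others. Its gene ilvB was low in 1% replicate 9 (6.61 log2 CPM) and leuC in 2.5% replicate 4 (5.61 log2 CPM). In F. rodentium, gatC_2 was at 2.66 log2 CPM in 2.5% replicate 1, where it had 0 counts, and manZ_1 at 9.50 log2 CPM in 1% replicate 5, the library with the smallest F. rodentium share at 1%.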

How the results depend on the processing

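The fall of the F. rodentium share and the rise of the Alistipes share kept their direction and passed the test under every alternative run, with differences of -40.2 to -31.2 and 1.16 to 1.53 points when 1 library was left out. As centred log-ratios Acetatifactor was -0.083, D. muris -0.43, L.bacterium335 0.80 and X. muris 0.35. Without F. rodentium in the denominator Acetatifactor was -2.81, D. muris -8.42, X. muris -0.50 and L.bacterium335 10.3 points. Without libraries 80 and 81 the X. muris share differed by 4.71 points. At a depth of 2000 counts X. muris showed 113.7 more features in the same libraries and 60.9 more with 2.5% replicate 9, which that depth lets in. With 1 library left out, the share difference ran from -0.477 (without 2.5% replicate 6) to 1.59 points in D. muris and from 4.54 to 7.01 in X. muris, with permutation adjusted p of 0.0134 to 0.0849. The 5-feature share of L.bacterium335 ran from -23.9 to -14.7 points. Differences in features ran from 206.1 to 396.1 in Acetatifactor (passing without 2.5% replicate 8), 58.2 to 97.4 in D. muris (passing without 1% replicate 5 or 2.5% replicate 1), 266.7 to 464.4 in L.bacterium335 and, in X. muris, 212.2 to 292.7, where 8 of 19 runs missed the test.

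Calls of features by edgeR, without the low-count filter, numbered 7 in Acetatifactor, 14 in F. rodentium and 20 in X. muris. By DESeq2 there were 18 in Acetatifactor, 17 in D. muris, 19 in F. rodentium, 162 in L.bacterium335 (90 shared with the 101 of edgeR) and 15 in X. muris. The 359 DESeq2 calls in Alistipes had no library minimum and cannot be told apart from the low depth at 1%. With a minimum of 50000 counts 0 were called in D. muris and 2 in F. rodentium. With all 4 diets in the fit F. rodentium had 14. With the genome total as a covariate 0 were called in D. muris, L.bacterium335 and X. muris, and 3 in F. rodentium. With RLE factors L.bacterium335 had 0, with medians of all features of 1.57 there and 0.72 in Acetatifactor, and mftC stood at -2.35 (edgeR adjusted p = 0.0781). Without libraries 80 and 81 D. muris had 1 call, and without these and 2.5% replicate 9, chosen after seeing the data, L.bacterium335 had 162. The causes of these differences were not tested.

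With 1 library left out, edgeR calls ran from 58 to 164 in L.bacterium335, 0 to 25 in Acetatifactor, 4 to 9 in X. muris, 2 to 5 in D. muris and 2 to 6 in F. rodentium. L.bacterium335 had 164 without 2.5% replicate 9, and 58 to 66 without 1% replicate 2 or 2.5% replicates 2, 5, 6, 7 or 8. F. rodentium had 2 or 3 without 1% replicates 6, 8, 9 or 10 or 2.5% replicates 2, 4 or 5. D. muris had 5 without 1% replicates 6 or 9 or 2.5% replicate 8, and X. muris 4 without 1% replicate 1.

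Genes that were not called changed sign in a few settings. With the genome total as a covariate, Acetatifactor glgD was -0.34 and hbd -0.0094, D. muris susC_1 0.050, and L.bacterium335 fliD -1.37, glgD -0.93 and hbd -0.84. With RLE factors kduD_1 was 1.29. The gene fliD was -0.0095 with all 4 diets, -0.11 without libraries 80 and 81, and -0.11 to 0.18 with 1 library left out. No paired analysis was possible, since the mice had either 1% or 2.5% broccoli and the labels match no libraries between the groups. Depth limits Alistipes at 1% and F. rodentium in 2.5% replicates 6 and 9, and low features of F. rodentium rest on few counts.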
